A study of Mus musculus with 14 samples.

Results

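The Zscan4 family of the mouse was taken as the 6 genes Zscan4a to Zscan4f, chosen by name. Of these, 4 had an entry among the 25650 RefSeq transcript entries measured in each embryo, namely Zscan4b (NM_001185173), Zscan4c (NM_001013765), Zscan4d (NM_001100186) and Zscan4f (NM_001110316). Zscan4a and Zscan4e, which RefSeq annotates as pseudogenes, were not analysed here. Zscan4b was listed at 0 in all 14 embryos, so the values come from 3 members, Zscan4c, Zscan4d and Zscan4f.

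Zscan4 genes encode DNA-binding proteins with an N-terminal SCAN domain and C-terminal zinc fingers. They are switched on at the major wave of zygotic transcription in the two-cell mouse embryo and are silent in most other cells, apart from a small, changing share of embryonic stem cells. In those cells Zscan4 is known for lengthening telomeres by recombination and for keeping the genome stable. The transcription factor Dux, with Dppa2 and Dppa4 above it, is a known activator of the family.

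RNA was sequenced from 14 single mouse embryos of the B6D2F1 strain made by somatic cell nuclear transfer (SCNT), in which the nucleus of a cumulus cell, a somatic cell that surrounds the oocyte, is placed in an enucleated oocyte. All embryos, controls included, were activated with strontium chloride in the presence of cytochalasin B, cultured in mKSOM medium with deionized bovine serum albumin (dBSA) and collected as two-cell embryos (by the labels at 28 h from nuclear transfer). The groups were Control (3 embryos, no small molecule), TSA(0-8h) (3 embryos, 50 nM trichostatin A, an inhibitor of histone deacetylases, from 0 to 8 h after the start of activation), VC(0-8h) (1 embryo, 10 µg/ml vitamin C from 0 to 8 h), VC(8-15h) (2 embryos, 10 µg/ml vitamin C from 8 to 15 h), TSA(0-8h)+VC(0-8h) (2 embryos) and TSA(0-8h)+VC(8-15h) (3 embryos). Each embryo is 1 library, no fertilised embryo was among the samples analysed here, and nothing in the labels says which embryos shared a donor or a manipulation day, so p-values measure the spread between these embryos.

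Between 3021540 and 13589389 reads were counted per embryo, and the values were deposited as RPKM, reads scaled to transcript length and to the total counted. By a number in the library identifiers the libraries fell into 3 sets, taken here as sequencing pools, though the labels name no pool. Transcripts used by every cell were missing from single libraries, with Actb listed at 0 in 1 embryo, Hprt in 2 and Tbp in 5. A value of 0 is therefore given only as listed at 0, and in one embryo fewer molecules captured and fewer molecules present cannot be told apart. Of 16 entries for 14 cumulus cell markers, none to 2 per embryo reached 1 RPKM, and Inhba, Hsd3b1 and Fshr were at 0 throughout. Those that did were Vcan (68.1 RPKM in TSA(0-8h) replicate 2), Fst and Star (13.8 and 1.49 RPKM in VC(8-15h) replicate 1) and Has2 (1.82 RPKM in TSA(0-8h)+VC(0-8h) replicate 2).

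The members are near-copies of each other, which bears on every value below. By the GENCODE annotation of mm9, the build used for mapping, Zscan4b (chr7:11486098-11490399, minus strand), Zscan4c (chr7:11591071-11595896, plus), Zscan4d (chr7:11746992-11751497, minus), Zscan4e (chr7:11891727-11896031, minus) and Zscan4f (chr7:11983264-11988090, plus) lie with the pseudogene Zscan4-ps2 within 618363 bases of chromosome 7, each with 4 exons. Zscan4c and Zscan4f differ at 6 of 1518 coding bases (99.6% identity) and at 3 of the 506 residues of their proteins. Zscan4d differs from each of them at 35 coding bases (97.7%), and 32 of the 38 coding positions that are not the same in all 3 are particular to Zscan4d. The stretch of exon 4 below, coding bases 665 to 724, is shown because a read that falls in it can tell Zscan4d from Zscan4c and Zscan4f but cannot tell Zscan4c from Zscan4f. Capitals mark the 5 bases at which the members are not the same, and mm9 positions are chr7:11594489-11594548 (plus strand) for Zscan4c, chr7:11748067-11748126 (minus) for Zscan4d and chr7:11986682-11986741 (plus) for Zscan4f.
Zscan4c: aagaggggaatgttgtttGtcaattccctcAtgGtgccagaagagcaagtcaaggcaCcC
Zscan4d: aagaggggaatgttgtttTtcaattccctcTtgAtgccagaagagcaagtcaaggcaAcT
Zscan4f: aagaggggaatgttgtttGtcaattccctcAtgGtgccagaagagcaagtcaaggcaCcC

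In exon 3, coding bases 406 to 465 are the same in all 3 members, and a read from them names no member. The longest such run was 233 bases. The sequence is printed once, from Zscan4c (chr7:11594146-11594205, plus strand, mm9).
Zscan4c, Zscan4d and Zscan4f: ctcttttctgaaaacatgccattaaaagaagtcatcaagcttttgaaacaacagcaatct

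Cut into all windows of 50 bases, the read length, the transcript of Zscan4d had 50.2% of its windows at no other place in mm9 or in another member. The share was 14.5% for Zscan4c, 4.55% for Zscan4f and 7.55% for Zscan4b. Of the windows of Zscan4f, 81.7% also occurred in Zscan4c and 84.7% in Zscan4-ps2. Of those of Zscan4d, 40.5% occurred in Zscan4c and 38.1% in Zscan4f. Every exact copy found outside the annotated members lay on chromosome 7, in or near the cluster. How the authors' counting treated reads with several matches is not given in the sources used here.

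The promoters were alike too, with 94.7 to 99.6% of aligned bases identical between any 2 of the 4 members with one in the RefSeq table. The stretch around the TATA box is shown because all 4 members with a measured entry hold one there, whether or not they had reads. In each, 60 bases before and 20 bases after the box are given from the RefSeq promoters of GRCm38.p6, with the box (TATAAAA) in capitals, for Zscan4b (chr7:10905055-10905141, minus strand), Zscan4c (chr7:11005631-11005717, plus), Zscan4d (chr7:11166187-11166273, minus) and Zscan4f (chr7:11397824-11397910, plus).
Zscan4b: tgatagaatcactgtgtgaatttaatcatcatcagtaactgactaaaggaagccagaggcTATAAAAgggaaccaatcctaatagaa
Zscan4c: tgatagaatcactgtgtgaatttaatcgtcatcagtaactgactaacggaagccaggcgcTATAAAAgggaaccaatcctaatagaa
Zscan4d: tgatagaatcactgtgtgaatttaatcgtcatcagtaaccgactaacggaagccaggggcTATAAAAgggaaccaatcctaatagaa
Zscan4f: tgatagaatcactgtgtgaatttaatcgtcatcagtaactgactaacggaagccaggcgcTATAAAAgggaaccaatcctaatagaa

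Of these 87 bases, 82 were the same in all 4 members, and Zscan4c and Zscan4f were identical over the window. Searched on both strands of the 250 bases before the annotated start, TATAAAA was present in 4 of 4 members and in 4.98% of 32851 promoters. The box began 31 bases before the annotated start in Zscan4b and Zscan4f, 54 in Zscan4c and 65 in Zscan4d.

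Zscan4 RNA was present at 1 RPKM or more in 4 of the 14 embryos, and the highest level was in an untreated one. Summed over Zscan4c, Zscan4d and Zscan4f, the control embryos had 0, 0 and 87.8 RPKM for replicates 1, 2 and 3. The TSA(0-8h)+VC(8-15h) embryos had 18.9, 3.71 and 0.513 RPKM, and the VC(8-15h) embryos 0.0445 and 9.32 RPKM. The VC(0-8h) embryo had 0.852 RPKM, the TSA(0-8h) embryos 0, 0 and 0.0801 RPKM, and both TSA(0-8h)+VC(0-8h) embryos were listed at 0. Apart from the single VC(0-8h) embryo, TSA(0-8h)+VC(8-15h) was the only group in which every embryo had reads in all 3 entries, while TSA(0-8h) and TSA(0-8h)+VC(0-8h) had no embryo above 1 RPKM. The order of the groups by their highest embryo put controls first, but control and TSA(0-8h)+VC(8-15h) embryos overlapped over the whole range of the latter.

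**Figure D1:**
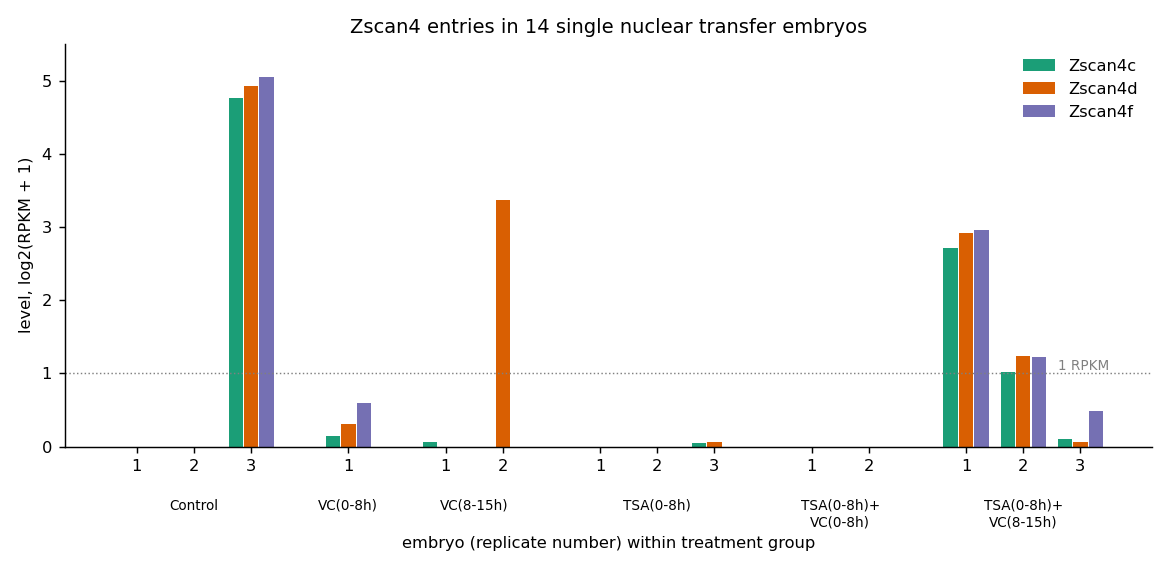
Level of Zscan4c, Zscan4d and Zscan4f in each of 14 single embryos, as log2(RPKM + 1) on the vertical axis, by treatment group and replicate number on the horizontal axis; the dotted line is 1 RPKM. Control replicate 3 stands highest at 26.2 to 32.2 RPKM, the 3 entries move together in most embryos, and VC(8-15h) replicate 2 has Zscan4d alone.

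Zscan4c had 26.2 RPKM (811 reads) in control replicate 3 and was listed at 0 in control replicates 1 and 2. The TSA(0-8h)+VC(8-15h) embryos had 5.56 (55 reads), 1.02 (18 reads) and 0.0716 RPKM (2 reads) of Zscan4c. In 3 further embryos, VC(0-8h), VC(8-15h) replicate 1 and TSA(0-8h) replicate 3, it had 1 read each (0.103, 0.0445 and 0.0374 RPKM). Zscan4c was at 0 in the other 5 embryos.

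Zscan4d, the major Zscan4 transcript described in the two-cell embryo, had 29.4 RPKM (796 reads) in control replicate 3 and 0 in the other controls. The TSA(0-8h)+VC(8-15h) embryos had 6.59 (57 reads), 1.36 (21 reads) and 0.0409 RPKM (1 read). VC(8-15h) replicate 2 had 9.32 RPKM (122 reads) against 0 in VC(8-15h) replicate 1. It was the only member at 1 RPKM or more in 4 embryos, since Zscan4c and Zscan4f were at 0 in VC(8-15h) replicate 2. The VC(0-8h) embryo had 0.236 RPKM (2 reads) and TSA(0-8h) replicate 3 had 0.0427 RPKM (1 read).

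Zscan4f, the member described in embryonic stem cells with Zscan4c, had 32.2 RPKM (800 reads) in control replicate 3 and 0 in the other controls. The TSA(0-8h)+VC(8-15h) embryos had 6.80 (54 reads), 1.34 (19 reads) and 0.401 RPKM (9 reads), and the VC(0-8h) embryo had 0.513 RPKM (4 reads). Both VC(8-15h) embryos, all 3 TSA(0-8h) embryos and both TSA(0-8h)+VC(0-8h) embryos were listed at 0 for Zscan4f, more zeros than for the other members. A floor of 3 reads corresponded to 0.101 to 0.543 RPKM in the embryos listed at 0, so lower levels were not detectable there, and such floors cover counting error only.

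Within each embryo the members could also be set against all other transcripts. In control replicate 3, 24.9% of the 9557 entries above 0 were higher than Zscan4f. In TSA(0-8h)+VC(8-15h) replicate 1, 50.1% of 8380 entries were higher, and in replicate 2 of that group 56.7% of 9415. Zscan4d in VC(8-15h) replicate 2 stood as high in its own library, below 24.9% of 8473 entries, as Zscan4f did in control replicate 3. That library had 3322 entries at 1 RPKM or more, against 5439 in control replicate 3.

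The reads were split almost evenly among the 3 members wherever the family was abundant, with 1 exception. In control replicate 3, Zscan4c took 33.7%, Zscan4d 33.1% (95% Wilson interval 31.2 to 35.0%) and Zscan4f 33.2% of 2407 reads. TSA(0-8h)+VC(8-15h) replicate 1 gave 33.1%, 34.3% and 32.5% of 166 reads, and replicate 2 gave 18, 21 and 19 of 58 reads. Replicate 3 of that group had 9 of its 12 reads in Zscan4f. In VC(8-15h) replicate 2 all 122 reads were in Zscan4d, and for 0 of 122 in Zscan4c, as in Zscan4f, the 95% Wilson interval reached 3.05%. That library gave no read to either member with which Zscan4d shares 40.5% and 38.1% of its windows. Zscan4b, which shares 39.1% of its windows with Zscan4c and 38.6% with Zscan4f, had 0 reads in control replicate 3 beside 811 and 800 reads in those members. PCR copies were not removed by molecular identifiers, so these intervals cover counting error only.

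**Figure D2:**
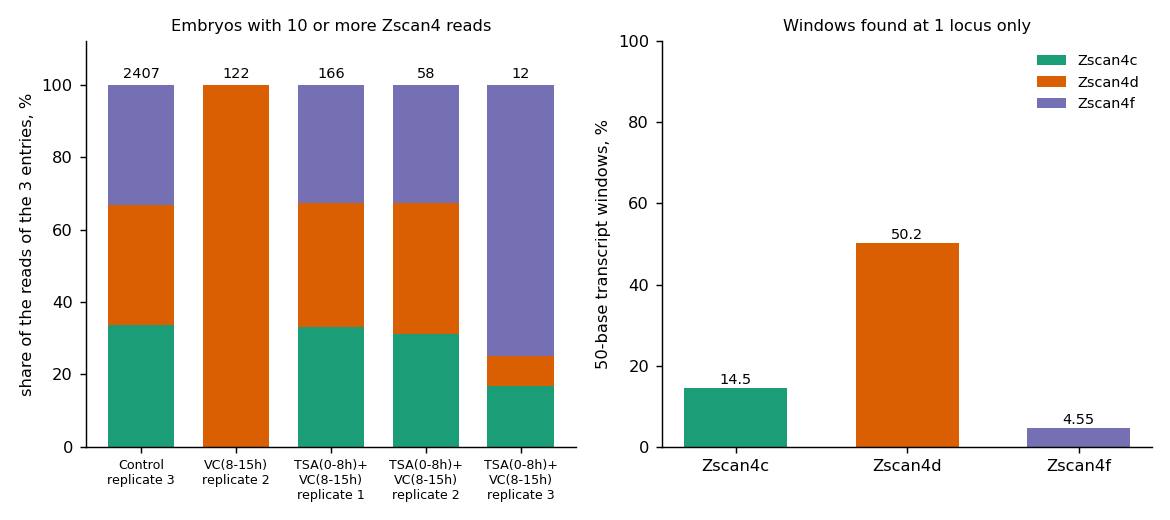
Left, share of the reads of the 3 entries held by each member, in percent, in the 5 embryos with 10 or more Zscan4 reads, with the number of reads above each bar; right, percent of 50-base windows of each transcript found at 1 locus only in mm9. Shares lie near 33% each in 3 embryos and at 100% Zscan4d in VC(8-15h) replicate 2, while the windows particular to a member range from 4.55% for Zscan4f to 50.2% for Zscan4d.

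The comparison of TSA(0-8h)+VC(8-15h) with control embryos asks whether the combined treatment changed the family at the two-cell stage. On the log2(RPKM+1) scale, on which differences of low entries are understated, the difference of means was -0.31 for Zscan4c, -0.24 for Zscan4d and -0.13 for Zscan4f, with pooled SDs between embryos of 2.16, 2.25 and 2.25 (n = 3 and 3). Two-sided exact permutation tests gave p = 1.0 for each (n = 3 and 3), where 0.1 is the smallest p this design allows. None of the 3 passed the filter of 1 RPKM in every embryo of either group, so none entered the limma fit across all transcripts, in which 0.0293% of 3416 entries were called at an adjusted p of 0.05. The sign rested on control replicate 3, since without it the differences were 1.28, 1.41 and 1.56. That embryo was not set apart by the label, and its depth, 13589389 reads, was the highest of the 14.

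Against control embryos, TSA(0-8h) alone gave differences of -1.57 for Zscan4c, -1.62 for Zscan4d and -1.68 for Zscan4f, again within the pooled SDs of 1.95 to 2.06 (exact permutation p = 1.0 for each, n = 3 and 3, two-sided). No member was tested by limma, which called 0.119% of 2529 entries. Without control replicate 3 the differences were 0.02, 0.02 and 0.

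The question what late vitamin C added to TSA is asked by TSA(0-8h)+VC(8-15h) against TSA(0-8h), and here the embryos of the groups were nearly apart. Every TSA(0-8h)+VC(8-15h) embryo was above every TSA(0-8h) embryo for Zscan4c (0.0716 RPKM or more against 0.0374 or less) and for Zscan4f (0.401 or more against 0), but not for Zscan4d, where replicate 3 of each group had 1 read. The same separation in this direction was seen in 5.85% of 14678 entries with reads in these 6 embryos. For Zscan4c it rested on 2 reads against 1. The differences were 1.26, 1.39 and 1.56 with pooled SDs of 0.939, 1.02 and 0.899, and two-sided exact permutation p-values were 0.1 for Zscan4c, 0.2 for Zscan4d and 0.1 for Zscan4f (n = 3 and 3), with 0.1 the smallest this design allows. The median over all 3243 entries tested was 1.18 in the same direction, 0.09 after quantile normalization, and 0.07 over the 14678 entries with reads. No member passed the filter for limma, which called 0 of 3243 entries (0%), with 604 entries at an unadjusted p under 0.05 and 315 called by limma-voom on the reads recovered from the RPKM steps. Without replicate 3 of TSA(0-8h)+VC(8-15h), the embryo with the lowest levels of its group, all 3 members passed the filter and were called by limma (adjusted p = 0.0471, 0.0394 and 0.0394 for Zscan4c, Zscan4d and Zscan4f), in a fit that called 8.32% of 3860 entries. They then entered the fit only through the group in which they were high. Without replicate 1 of that group the differences were lower, at 0.54, 0.63 and 0.86. With all 6 embryos and no filter, limma gave adjusted p-values of 0.72 for each.

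VC(8-15h) against control gave differences of -1.56 for Zscan4c, 0.04 for Zscan4d and -1.68 for Zscan4f, with pooled SDs of 2.25, 2.70 and 2.38 (exact permutation p = 1.0 for each, n = 2 and 3, two-sided, smallest p allowed 0.2). The value of Zscan4d came from 1 embryo in each group, 9.32 RPKM in VC(8-15h) replicate 2 and 29.4 RPKM in control replicate 3. Without control replicate 3 the differences of Zscan4c and Zscan4f were 0.03 and 0, and that of Zscan4d was -1.64 without VC(8-15h) replicate 2 and 1.73 without replicate 1. No member was tested by limma, which called 0 of 3171 entries (0%), with 451 at an unadjusted p under 0.05 and 133 by limma-voom. The interaction of TSA(0-8h) and VC(8-15h), the part of the response to the combination that the single treatments do not add up to, was 2.82 for Zscan4c, 1.34 for Zscan4d and 3.24 for Zscan4f on the log2 scale. The pooled SDs, spreads of single embryos and not errors of the interaction, were 1.63, 1.93 and 1.70. In limma with no filter the SEs of the interaction were larger, at 2.09, 2.64 and 2.26. Without control replicate 3 the interaction was 1.23 for Zscan4c and 1.56 for Zscan4f, and for Zscan4d it ran from -0.34 without VC(8-15h) replicate 1 to 3.03 without replicate 2. No member entered the limma test of the interaction, which called 0 of 4181 entries (0%), with 420 at an unadjusted p under 0.05 and 1 by limma-voom. With no filter, added after seeing the data, limma-voom gave the members an adjusted p of 0.783, 0.915 and 0.628.

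**Figure D3:**
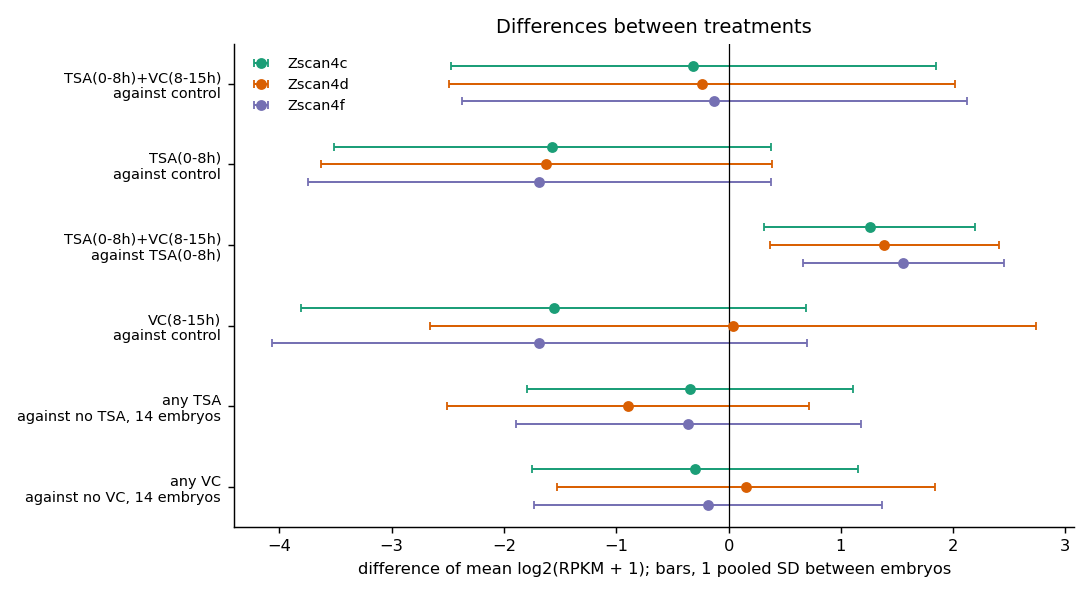
Difference of mean log2(RPKM + 1) between groups for Zscan4c, Zscan4d and Zscan4f, in 6 comparisons on the vertical axis; bars are 1 pooled SD between embryos. TSA(0-8h)+VC(8-15h) against TSA(0-8h) gives the only differences larger than that SD, 1.26 to 1.56, and the others lie within it.

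Taking all 14 embryos, with TSA and VC as the factors of 1 model, allowed the 3 members to be tested by limma. They reached 1 RPKM or more in 1 or 2 of the 6 embryos without TSA and in 2 of the 8 with TSA. The fitted log2 differences for any TSA against no TSA were -0.31 (SE 0.755) for Zscan4c, -0.93 (SE 0.891) for Zscan4d and -0.34 (SE 0.807) for Zscan4f, and none passed the test (limma adjusted p = 0.9997, 0.982 and 0.9997). Over all transcripts 0.0242% of 8249 entries were called for this factor. Two-sided exact permutation tests gave p = 0.657, 0.326 and 0.689 (n = 8 and 6).

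For any VC against no VC, the members reached 1 RPKM in 1 of 6 embryos without VC and in 2 or 3 of 8 with it. Reads of at least 1 member were found in 6 of 8 embryos with VC and in 2 of 6 without. The fitted log2 differences were -0.26 (SE 0.755) for Zscan4c, 0.27 (SE 0.891) for Zscan4d and -0.14 (SE 0.807) for Zscan4f, with limma adjusted p-values of 0.951, 0.959 and 0.975, beside 0.0242% of 8249 entries called. Exact permutation p-values were 0.843, 0.979 and 0.881 (n = 8 and 6, two-sided). No member had an unadjusted p under 0.05 in either factor, by limma or by limma-voom. Across all entries the median log2 difference for this factor was 0.52, and under quantile normalization it was -0.02, while the members moved to -0.33, 0.40 and -0.24.

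Sequencing pool and depth stood beside these values. Pool 3 held 3 embryos, 1 each of TSA(0-8h)+VC(8-15h), TSA(0-8h) and Control, with 11753807 to 13589389 reads, and their summed Zscan4 RPKM was 0.513, 0.0801 and 87.8. In pool 1 the sums ran from 0 to 18.9 RPKM over 5 embryos and in pool 2 from 0 to 9.32 over 6 embryos, so each pool held 1 or 2 embryos above 1 RPKM. Within pool 1 and within pool 2 the TSA(0-8h)+VC(8-15h) embryo was above the control and the TSA(0-8h) embryo, both at 0, and within pool 3 it was below the control. The part of pool and depth in the levels was not tested beyond a fit with the pool as a term, in which no member was called.

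Genes known to act above Zscan4 were read out in the same embryos. Of the regulators Duxf3, Dux, Dppa2, Dppa4, Nelfa and Tbx3, 4 genes had entries, and Dux itself was not analysed here. Dppa2, an activator of Dux and of the two-cell programme, had 52.0, 12.1 and 32.6 RPKM in control replicates 1 to 3, so the control embryo with the most Zscan4 was between the controls without it. TSA(0-8h) embryos had 171.4, 240.9 and 195.9 RPKM of Dppa2, with Zscan4 at or near 0. Its limma log2 difference for any TSA was 2.70 (SE 1.03, adjusted p = 0.916). Dppa4, the partner of Dppa2, had 2 entries, and one of them (NM_001018002) had 4880.5 RPKM in control replicate 3 and 1477.8 RPKM in TSA(0-8h)+VC(8-15h) replicate 1, the embryos with the most Zscan4, against 9.61 RPKM or less in the others. The other entry (NM_028610) had 207.6 and 232.2 RPKM there and 164.6 and 173.6 RPKM in VC(8-15h) replicate 1 and TSA(0-8h) replicate 2, which had 1 Zscan4 read or none. No entry of this list was called in any of the 7 comparisons, with 2 to 5 of its 6 entries tested. These genes and those named in the next paragraphs were singled out after their values were seen. The share of all entries in which a treated group stood wholly apart from the controls was not counted.

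Other genes of the two-cell programme were read at high levels in embryos that had no Zscan4. A list of 26 such genes (25 of them in the files, with 27 entries) includes Zfp352, Tcstv1 and Tcstv3, the Tdpoz, Usp17l and Trim43 genes and Arg2. Summed over the list, the 3 control embryos had 494.3, 45.7 and 728.5 RPKM. The TSA(0-8h) embryos had 868.9 to 1279.4 RPKM, both TSA(0-8h)+VC(0-8h) embryos 1202 and 1685 RPKM, and the TSA(0-8h)+VC(8-15h) embryos 1320 to 1927 RPKM. The embryo with the highest sum, VC(8-15h) replicate 2 with 2993 RPKM, was the one with Zscan4d alone. Spearman's rho of this sum with summed Zscan4 RPKM was 0.451 over the 14 embryos, a description in which 6 embryos are tied at 0 Zscan4.

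**Figure D4:**
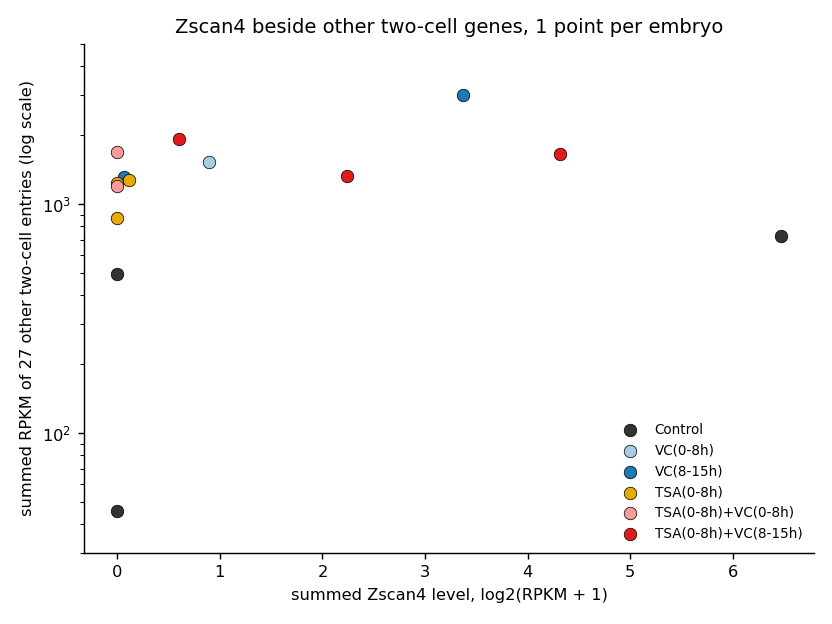
Summed RPKM of 27 entries of other two-cell genes (vertical, log scale) against the summed Zscan4 level as log2(RPKM + 1) (horizontal), 1 point per embryo, coloured by group. Control replicate 3 lies farthest right at 87.8 RPKM of Zscan4 and 728.5 RPKM of the list, and embryos at 0 Zscan4 span 45.7 to 1685 RPKM of the list.

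Zfp352, a zinc finger gene of the two-cell embryo, had 135.1, 154.9 and 225.2 RPKM in the TSA(0-8h) embryos and 0.326, 2.83 and 124.5 RPKM in the controls. The embryo with the most Zscan4 was thus also the only control with Zfp352 above 3 RPKM, whereas the TSA(0-8h) embryos all had Zfp352 and at most 2 Zscan4 reads. Tcstv1, a small two-cell gene that rises with Zscan4 in stem cells, had 54.8, 1.38 and 73.1 RPKM in the controls and 228.6, 202.4 and 27.1 RPKM in the TSA(0-8h)+VC(8-15h) embryos. Tcstv1 was at 218.5 RPKM in VC(8-15h) replicate 2 and at 2.35, 19.1 and 0.403 RPKM in the TSA(0-8h) embryos, which overlapped the controls. Tdpoz1, of the speckle-type POZ family, had 0.0801, 0.443 and 0.991 RPKM in the controls and 32.7, 62.8 and 81.7 RPKM in the TSA(0-8h)+VC(8-15h) embryos. The VC(8-15h) embryos had 17.8 and 99.3 RPKM of Tdpoz1, and the TSA(0-8h) embryos 0.144, 0.111 and 7.02 RPKM. It was at 0.799 and 20.9 RPKM in the TSA(0-8h)+VC(0-8h) embryos and at 0.612 RPKM in the VC(0-8h) embryo.

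No entry of this list was called in any of the 7 comparisons. In TSA(0-8h)+VC(8-15h) against control, the 12 entries tested had a median log2 difference of 2.79, beside 0.78 for all 3416 entries, and 4 had an unadjusted p under 0.05, all higher, beside 18.4% of all entries at such a p in either direction. Quantile normalization moved the median of all entries in that comparison to -0.03. A higher median was not particular to the combination. In VC(8-15h) against control, the median of 13 entries was 3.90, beside 0.42 for all 3171. Of these 13, 7 had an unadjusted limma p under 0.05, all higher, beside 14.2% of all entries in either direction. TSA(0-8h) against control gave a median of 2.46 over 7 entries, beside -0.38. The interaction gave -2.67 over 14 entries, beside 0.74. Over the 14 embryos, 24 entries were tested, with a median of 0.21 for any TSA, beside -0.01 for all entries, and of 1.93 for any VC, beside 0.52.

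Genes that hold the two-cell programme down were read at widely differing levels, with 6 to 15 of their 21 entries at 1 RPKM or more per embryo. Of 13 repressors, among them Trim28, Setdb1, Kdm1a, Dnmt1 and the chromatin assembly subunits Chaf1a and Chaf1b, all had entries. Kdm1a reached 1 RPKM in 5 embryos and was listed at 0 in 4, and Chaf1b was listed at 0 in 5. Their sum ranged from 469.0 to 1252.5 RPKM over the 14 embryos, with 546.7 to 833.9 RPKM in controls and 688.9 to 1192.7 RPKM in TSA(0-8h)+VC(8-15h) embryos, and none was called in any comparison. Chaf1a had 1.17, 42.3 and 35.9 RPKM in the controls and 159.1, 120.2 and 139.2 RPKM in the TSA(0-8h)+VC(8-15h) embryos (limma unadjusted p = 0.027, adjusted p = 0.19). Of the 9 entries of the list tested in TSA(0-8h)+VC(8-15h) against control, 2 had an unadjusted limma p under 0.05, both higher. Beside them, 18.4% of all 3416 entries had such a p in either direction. Median log2 differences of the list were 0.84 in that comparison and 0.51 for any VC, near the 0.78 and 0.52 of all entries.

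Genes with which Zscan4 acts at telomeres and in recombination were read at widely differing levels. Of 10 genes (13 entries), the meiotic genes Spo11 and Dmc1 stayed under 0.2 RPKM in every embryo. Terf1, a telomere-binding protein, ran from 0 to 173.2 RPKM, with 47.99 RPKM in control replicate 3. Hdac1, a deacetylase, was lowest in that embryo at 0.187 RPKM and ran up to 215.8 RPKM in TSA(0-8h) replicate 1. No entry of the list was called.

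Outside the family, 10 of 12 other Zscan genes had entries (11), and their summed RPKM ranged from 0.187 to 232.6 over the embryos. Zscan25 had 11.2, 108.7 and 10.8 RPKM in the TSA(0-8h)+VC(8-15h) embryos and 1.29 RPKM in control replicate 3, with the other 2 controls at 0. Zscan5b had 27.6, 14.2 and 79.3 RPKM in the same treated embryos and 0.336, 0.260 and 1.60 RPKM in the TSA(0-8h) embryos. The latter were all lower, as in 5.85% of 14678 entries. The controls had 0.187, 47.3 and 0.149 RPKM of Zscan5b and overlapped the treated embryos. Neither gene was called.

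Maternal transcripts were also read beside the family. The 15 entries for 13 oocyte markers, such as Gdf9, Bmp15 and Zfp57, summed to 3106, 881.8 and 3377 RPKM in the controls and to 1488, 499.9 and 579.98 RPKM in the TSA(0-8h)+VC(8-15h) embryos. Much of this sum came from the 3 entries of Zfp57. Without them it was 1203, 281.8 and 1264 RPKM in the controls and 798.9, 389.8 and 513.1 RPKM in the treated embryos. The groups overlapped with and without these entries. Control replicate 3, with the most Zscan4, had the highest sum of its group both ways. The 8 two-cell markers summed to 247.3, 7.65 and 264.6 RPKM in controls and to 522.5 to 574.6 RPKM in TSA(0-8h)+VC(8-15h) embryos. The highest sum, 1130.4 RPKM, was that of VC(8-15h) replicate 2, an embryo without TSA, beside 282.9 RPKM for replicate 1. With TSA(0-8h) alone the sums ran from 162.5 to 410.1 RPKM. They were 496.2 and 183.2 RPKM for TSA(0-8h)+VC(0-8h) and 317.3 RPKM for VC(0-8h). At least 2 of the 8 markers were at 1 RPKM or more in every embryo. Spearman's rho with summed Zscan4 was -0.284 for the oocyte sum and 0.586 for the two-cell sum (n = 14). Except for Eif1ad, the two-cell markers are also in the list of other two-cell genes above, so their sum is not a separate readout. The part of maternal RNA in the Zscan4 levels was not tested.

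The entries outside the family most like summed Zscan4 were found by Spearman's rho over the 14 embryos among 4616 entries at 1 RPKM or more in at least 7 of them. The 5 highest were Senp1, a SUMO protease (rho 0.878), Slc7a2, a transporter of cationic amino acids (0.837), Rac1, a small GTPase (0.796), Tmcc2 (0.791) and Ift46, of the intraflagellar transport machinery (0.786), with a median of 0.0503 over all compared. Senp1 had 15.9, 12.6 and 137.3 RPKM in control replicates 1 to 3, 98.6, 144.6 and 36.8 RPKM in the TSA(0-8h)+VC(8-15h) embryos and 9.77, 18.0 and 64.3 RPKM in the TSA(0-8h) embryos. It was above 9 RPKM in embryos with no Zscan4 read, and the order among the 6 embryos tied at 0 Zscan4 does not enter rho. These values were picked as the highest of 4616 and come from the same libraries.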

How the data were processed

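RNA of 14 single embryos was sequenced as single-end reads of 50 bases. The authors trimmed the reads (Q20, cutadapt), mapped them to mm9 with TopHat2, counted reads over UCSC exons and deposited RPKM values, scaled to total counts and transcript length; the tool's version is not given in the sources used here. The RPKM steps gave back whole reads (99.99% of 14532 entries with reads in at least 2 embryos, tolerance 0.0001), giving 99.83 to 100.11% of each total.

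Groups came from the sample titles. Members and gene lists were chosen with earlier results of these data known; regulators, repressors, companion genes and markers were named from general knowledge, members are all named, and the 5 entries most like the family were taken by rank correlation. Entries at 1 RPKM in every embryo of either group (7 comparisons; 3 of 14 embryos for any TSA and any VC) were tested with limma 3.58.1 (R 4.3.3) after log2(RPKM+1), using eBayes with its trend option and Benjamini-Hochberg adjustment over all entries at 0.05. Since counts were recovered from RPKM, limma-voom served only as an alternative. Two-sided exact permutation tests (scipy 1.17.1) were run for 3 members in 6 comparisons, 18 tests, unadjusted. Intervals are 95% Wilson intervals. Fits were tested on simulated data of well-expressed entries with normal noise and a large shift. That setting is unlike the members, which were at or near 0 in most embryos, so it does not cover them. Alternatives were quantile normalization, a pseudocount of 0.1, median-ratio scaling, no filter, a replicate block, a 5 RPKM minimum, limma-voom, other filters and fits, and leaving out each embryo. The pool term and fits without a filter combined with voom or the block were added after seeing the data. Some genes of the lists are not reported here.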

Additional observations from a re-analysis of the deposited data

Results flagged for a closer look

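Single embryos stood apart from the others in their arm for Zscan4, judged by the gap to the nearest embryo divided by the range of log2(RPKM+1) in the arms of 6 and 8 embryos. Of 16 sets looked at, 11 had a gap over the 95% critical value, where chance gives about 1 in 20 for normal values; that rate cannot be applied here, since 2 to 5 values in each set were listed at 0, and the sets overlap, since TSA and VC arms hold the same embryos. Control replicate 3 was the far embryo among those without TSA for Zscan4c (gap 0.97 of the range) and Zscan4f (0.882), and among those without VC for Zscan4c (0.989), Zscan4d (0.988), Zscan4f (1.0) and the summed level (0.983). TSA(0-8h)+VC(8-15h) replicate 1 was the far embryo among those with TSA for Zscan4c (0.627), Zscan4d (0.577) and Zscan4f (0.587), and among those with VC for Zscan4c (0.627) and Zscan4f (0.587). The summed level had no such gap with TSA (0.482), without TSA (0.48) or with VC (0.22). In the arms without TSA and with VC, Zscan4d had none either, and VC(8-15h) replicate 2 was the second highest embryo without TSA and the highest with VC.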

How the results depend on the processing

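In the 5 comparisons of groups, members passed the filter under only 20 of 87 alternatives, so the lack of calls elsewhere was fixed by the filter; 1 alternative called members. Leaving out embryos gave 0.0 to 3.0 members called in TSA(0-8h)+VC(8-15h) against TSA(0-8h), the 3.0 without replicate 3 of the first group, in a fit that called 321 of 3860 entries. For any TSA and any VC at least 1 member was tested under all 46 alternatives and none was called. In TSA(0-8h)+VC(8-15h) against TSA(0-8h), the summed level differed by 2.35 on the log2(RPKM+1) scale and by 4.86 with a pseudocount of 0.1. For any VC against no VC, where no member passed the test, the sign turned for Zscan4c and Zscan4f: to 0.0748 and 0.517 with a pseudocount of 0.1, to 0.582 and 1.097 with limma-voom, to 0.909 and 1.356 with limma-voom and no filter, to 0.0693 and 0.226 with the pool as a term, and to 0.0226 and 0.180 with the replicate block. Leaving out single embryos, Zscan4d ranged from -0.0791 (without VC(8-15h) replicate 2) to 0.980 (without control replicate 3) and Zscan4f from -0.338 to 0.0293. Without control replicate 3, or either of TSA(0-8h)+VC(8-15h) replicates 1 and 2, Zscan4c and Zscan4f missed the filter and could not be fitted. The cause of these turns was not tested. Same-numbered control, TSA(0-8h) and combined-treatment embryos shared a pool. Their deviations correlated at 0.00995 to 0.0677 (9 pairs), and those of embryos of different numbers at -0.0569 to 0.0119 (18 pairs). Deviations were taken from the mean of each group, which ties these 2 ranges together, so the second is not a separate measure. The paper mentions 3 independent nuclear transfer experiments, and the sources used here do not assign embryos to them. Same-numbered embryos were not treated as paired in the main fits. The replicate block called no member, but in the comparisons of groups no member passed the filter for that fit. Block fits with no filter tested 3 members in each comparison of 2 groups and called 0.

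Over all entries, counts called moved by more than 1.5 times under 47 of 71 alternatives that kept every embryo. Under these they rose from 1 to at most 211 in TSA(0-8h)+VC(8-15h) against control, from 3 to 127 in TSA(0-8h) against control, from 0 to 193 in VC(8-15h) against control and from 0 to 22 for the interaction, each with a minimum of 5 RPKM. Between the combined treatment and TSA(0-8h) they rose from 0 to 315 with limma-voom and to 196 with the replicate block. For any TSA the range was 0 to 2 and for any VC 0 to 6. Leaving out single embryos moved the counts further: to 100 and 316 entries without control replicate 2 in TSA(0-8h)+VC(8-15h) and in TSA(0-8h) against control, to 250, 327 and 321 without replicates 1, 2 and 3 of the combined treatment against TSA(0-8h), to 457 and 1370 without VC(8-15h) replicates 1 and 2 against control, and to 257 and 630 without these for the interaction. A lone VC(8-15h) embryo is assumed there to vary like the other groups. For any TSA 2 to 4 and for any VC 2 to 7 entries were called. In the comparisons of groups with control, leaving out 1 embryo could turn or remove each Zscan4 difference. In TSA(0-8h)+VC(8-15h) against TSA(0-8h) the sign held whichever embryo was left out. The differences there ran from 0.54 to 1.85 for Zscan4c, 0.63 to 2.06 for Zscan4d and 0.86 to 2.09 for Zscan4f. With at most 3 embryos a group, a change in the family of the size of the spread between embryos was not detectable.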
